A study of Mus musculus with 4 samples.

Results

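The genes described here encode proteins that bind diacylglycerol (DAG) and its plant-derived mimic phorbol 12-myristate 13-acetate (PMA): the protein kinase C (PKC) genes Prkca, Prkcb, Prkcd, Prkce, and Prkch and the Ras guanyl-releasing protein (RasGRP) genes Rasgrp1, Rasgrp2, and Rasgrp3. The protein of Rasgrp2 binds both only poorly. The genes were taken by symbol from the feature table, and all 8 were found among its 31053 genes. The data are scRNA-Seq counts of unique molecular identifiers (UMIs), each of which stands for 1 captured mRNA molecule, from B cells of the spleen of WT C57BL/6 mice 6 to 12 weeks old. Both groups of the study were exposed for 3 days to the TLR9 agonist CpG B ODN 1668 at 10 μg/mL. Bregs-CpG received nothing further, whereas for Bregs-TLR 50 ng/mL of PMA, 1 μg/mL of ionomycin, a calcium ionophore, and 10 μg/mL of the TLR4 agonist LPS were present during the final 5 hours, with 2 samples in each group. B cells had been purified in bulk by negative selection, and the labels do not say whether the samples of a group came from separate mice or cultures.

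The barcodes number 4 libraries, 5 to 8, and the labels tie none of these numbers to a sample. The 4 libraries are therefore described one by one, Bregs-TLR were not compared with Bregs-CpG, and no p-value is given. Since there were 35989 columns of counts but 19920 barcodes, the barcodes were placed on the last columns. With that placement mean expression shifted where library 7 begins (percentile 100 of the shifts at all columns) and where library 5 begins (percentile 99.7), but the starts of libraries 6 and 8 were at percentiles 81.1 and 88.3, so the borders between 5 and 6 and between 7 and 8 rest on the order of the barcodes alone. Of the 19920 cells, 18534 passed the limits of at least 1000 genes and less than 10% of UMIs from mitochondrial genes, with 4003 to 5621 cells and 44842982 to 63638158 UMIs per library, and 29 barcode sequences occurred in more than 1 library. Libraries 5 and 6 stood apart from 7 and 8 in much of the transcriptome, with a median mitochondrial share of 7.22% and 7.18% of UMIs against 4.61% and 4.65%. All 6 B cell markers of the list, among them Cd79a, Cd79b, Ms4a1, Pax5, and Cd74, were detected, and their summed level was 13914 and 14449 CPM (a gene's UMIs per 1000000 UMIs of the library) in libraries 5 and 6 and 7388 and 7299 CPM in 7 and 8. Cd74 was the largest part of the sum and differed least, with its highest library 1.22-fold over its lowest. Ms4a1 differed most, by 47.3-fold, at 1499, 1510, 32.0, and 37.0 CPM in libraries 5, 6, 7, and 8. Of 9 T cell markers, 5 had no UMI, among them Cd3e, Cd4, and Cd8a, and the list summed to 3.92 to 7.96 CPM, most of it Lck. No UMI was counted for any of 4 NK cell markers or for 3 of 7 myeloid markers, and the myeloid list summed to 3.13 to 4.74 CPM. The 4 dendritic cell markers, of which Siglech had no UMI and Xcr1 and Clec9a had 20 and 6 in all, so that most of the sum was Flt3, summed to 4.37 and 5.52 CPM in libraries 5 and 6 and to 0.299 and 0.285 CPM in 7 and 8, and the 4 platelet markers to 0.131 to 0.445 CPM. Of the erythroid genes, Hbb-bt reached 4.57, 4.30, 218, and 285 CPM in libraries 5, 6, 7, and 8.

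DAG is made by phospholipase C after the B cell receptor is engaged, and together with calcium it carries the signal onward. It is bound by a small zinc finger, the C1 domain, which draws the protein to the membrane. PMA occupies the same pocket and, unlike DAG, is not quickly removed by DAG kinases. In B cells, PKCβ signals through BCL10 and MALT1 to the IKK complex and NF-κB, while RasGRP1 and RasGRP3 load Ras with GTP and start the Raf, MEK, and ERK cascade. RasGRP2 (CalDAG-GEFI) loads Rap1, the switch of integrin adhesion, and its C1 domain binds DAG and phorbol esters poorly.

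The C1 domains are what the 8 genes share and what PMA binds, though poorly in RasGRP2, so the coding stretches of 4 of the genes are shown. They were found by the spacing of the 8 zinc-binding histidine and cysteine codons, which are in capitals. The search used 1 transcript of GENCODE vM21 for each gene, the protein-coding transcript with the longest reading frame. Base positions count from the A of the ATG that opens this reading frame. The frame was the longest run from an ATG to a stop codon, so its ATG need not be the annotated start codon. The 5 PKC genes each held 2 such stretches and the 3 RasGRP genes 1.
Prkcb second C1, bases 304 to 453: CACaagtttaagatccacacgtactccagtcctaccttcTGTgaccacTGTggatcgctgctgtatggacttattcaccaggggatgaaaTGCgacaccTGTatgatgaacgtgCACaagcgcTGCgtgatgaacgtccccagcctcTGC
Rasgrp1 C1, bases 1870 to 2019: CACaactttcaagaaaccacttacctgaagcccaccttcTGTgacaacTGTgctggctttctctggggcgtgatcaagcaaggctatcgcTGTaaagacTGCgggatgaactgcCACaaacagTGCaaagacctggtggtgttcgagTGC
Rasgrp2 C1, bases 1495 to 1644: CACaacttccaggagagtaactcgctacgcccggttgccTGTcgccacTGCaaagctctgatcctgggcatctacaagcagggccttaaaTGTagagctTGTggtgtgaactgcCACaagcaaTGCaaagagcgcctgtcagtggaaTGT
Rasgrp3 C1, bases 1483 to 1632: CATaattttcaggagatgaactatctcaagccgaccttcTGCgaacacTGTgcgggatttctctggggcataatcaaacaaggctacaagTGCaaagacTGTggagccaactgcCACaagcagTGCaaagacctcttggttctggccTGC
Each stretch is 150 bases long. Rasgrp1 and Rasgrp3 were identical at 113 of them (75.3%), whereas Rasgrp2 was identical to Rasgrp3 at 92 (61.3%) and to Rasgrp1 at 88 (58.7%). Among the PKC genes, Prkca and Prkcb shared 124 bases (82.7%) in the second stretch.

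Every member except Prkch was readily detected, and each of these 7 was higher in libraries 5 and 6 than in 7 and 8. Of all genes in the data, 40.6% of the 11922 genes with at least 50 UMIs had this order, so the order alone does not set the members apart. A gene was counted as spread when its highest library was at least 2-fold over its lowest, which held for 38% of all genes, 19.8% with the highest value in library 5 or 6 and 18.2% with it in 7 or 8. Of the 7 members, 6 were spread, all with the highest value in library 5 or 6, and the median log2 ratio of highest over lowest was 2.52 against 0.77 over all genes. The members summed to 471 and 481 CPM in libraries 5 and 6 and to 136 and 122 CPM in libraries 7 and 8. The lower mitochondrial share and the lower B cell and dendritic cell markers of libraries 7 and 8 moved with the members, and their part in the result was not tested.

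**Figure D1:**
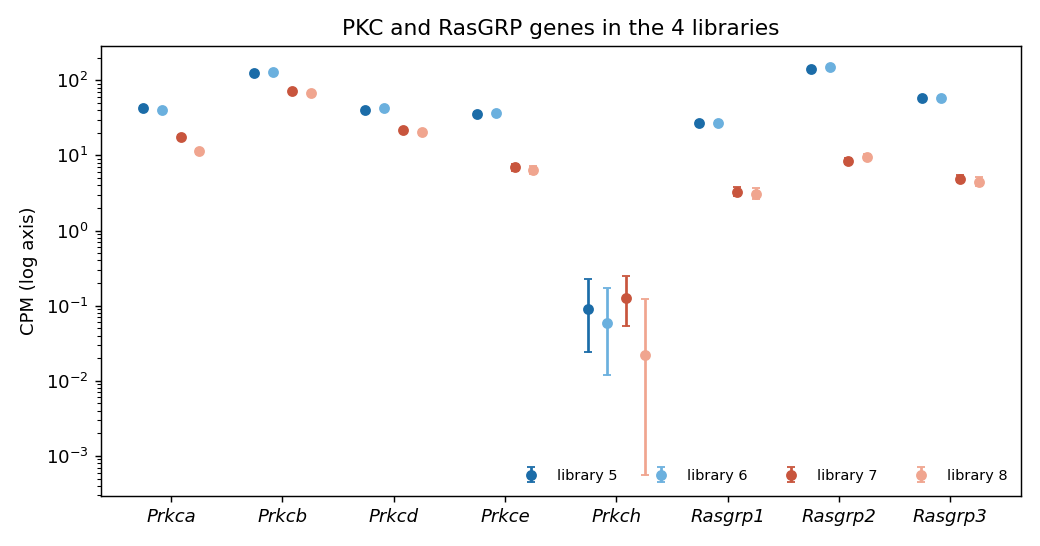
Each point is the level of a gene in 1 library in CPM, on a log axis, with its exact 95% Poisson interval, which covers counting error only and is often smaller than the point. For 7 genes both points of libraries 5 and 6 lie above those of 7 and 8, by the widest margin for Rasgrp2 and the narrowest for Prkcb, while Prkch, with 16 UMIs in all, lies near the limit of detection.

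The RasGRP genes had the largest spread. Rasgrp2 (ENSMUSG00000032946, chr19:6399340-6415216, plus strand), the Rap1 exchange factor, was counted at 142 CPM (95% interval, 139 to 146) in library 5, 150 (146 to 153) in library 6, 8.41 (7.71 to 9.15) in library 7, and 9.61 (8.73 to 10.6) in library 8. Libraries 5 and 6 were high and 7 and 8 low, with no overlap of the intervals, and the highest was 17.8-fold over the lowest (log2 4.15, 4.03 to 4.28). Rasgrp3 (ENSMUSG00000071042, chr17:75435896-75529054, plus strand), which PKC phosphorylates and which feeds Ras in B cells, was counted at 57.2 (55.0 to 59.4), 57.6 (55.6 to 59.7), 4.90 (4.37 to 5.48), and 4.44 CPM (3.85 to 5.10) in libraries 5, 6, 7, and 8. Its values fell into the same high and low pairs, far apart (log2 3.70, 3.49 to 3.91). Rasgrp1 (ENSMUSG00000027347, chr2:117279993-117343001, minus strand), best known for activating Ras in T cells and also used by B cells, had 27.0 (25.5 to 28.6), 26.9 (25.5 to 28.4), 3.27 (2.84 to 3.74), and 3.09 CPM (2.60 to 3.64). It was again high in libraries 5 and 6 and low in 7 and 8, by 8.75-fold (log2 3.13, 2.88 to 3.39). Within each pair of neighbouring libraries the intervals of Rasgrp1 and Rasgrp3 overlapped. Gene positions are those of GENCODE vM21 on GRCm38.

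The PKC genes were spread less, and unequally. Prkce (ENSMUSG00000045038, chr17:86167785-86657919, plus strand), which needs DAG but not calcium, had 36.1 (34.3 to 37.9), 36.6 (35.0 to 38.3), 6.91 (6.28 to 7.59), and 6.37 CPM (5.66 to 7.15), and its highest library was 5.75-fold over its lowest (log2 2.52, 2.34 to 2.71). Prkca (ENSMUSG00000050965, chr11:107933387-108343928, minus strand), a classical PKC that needs both DAG and calcium, had 42.8 (40.9 to 44.8), 40.2 (38.5 to 42.0), 17.6 (16.6 to 18.6), and 11.3 CPM (10.4 to 12.3). Its spread was 3.78-fold (log2 1.92, 1.78 to 2.06), but library 8 decided much of it, and without library 8 the log2 ratio was 1.28. Prkcd (ENSMUSG00000021948, chr14:30595354-30626210, minus strand), likewise independent of calcium, whose loss in mice leads to B cell expansion and autoimmunity, had 40.1 (38.2 to 42.0), 42.3 (40.5 to 44.1), 21.6 (20.4 to 22.7), and 20.2 CPM (18.9 to 21.5). Its log2 ratio of 1.07 (0.95 to 1.18) lay just over the 2-fold limit and was 0.99 without library 6 and 0.97 without library 8. Prkcb (ENSMUSG00000052889, chr7:122288751-122634402, plus strand), the PKC that acts through BCL10 and MALT1, had 125 (122 to 129), 128 (125 to 131), 72.7 (70.7 to 74.9), and 67.2 CPM (64.8 to 69.6). It was the only one of the 7 under the limit, with a log2 ratio of 0.93 (0.86 to 0.99), and passed it at 1.05 when mitochondrial, ribosomal protein, and immunoglobulin genes were left out of the total.

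Prkch (ENSMUSG00000021108, chr12:73584796-73778185, plus strand), a PKC of epithelia and T cells, had 4, 3, 8, and 1 UMIs in libraries 5, 6, 7, and 8, or 16 in all. These are 0.0892, 0.0581, 0.126, and 0.0219 CPM, near the level of 3 counts per library (0.0471 to 0.0669 CPM). A ratio of Prkch is given only for the setting with no filter on low counts. On the strand of Prkcb the annotation lists 7 small overlapping genes and on that of Prkce 1, none of which is in the feature table, so the counting did not divide reads between them and the member.

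**Figure D2:**
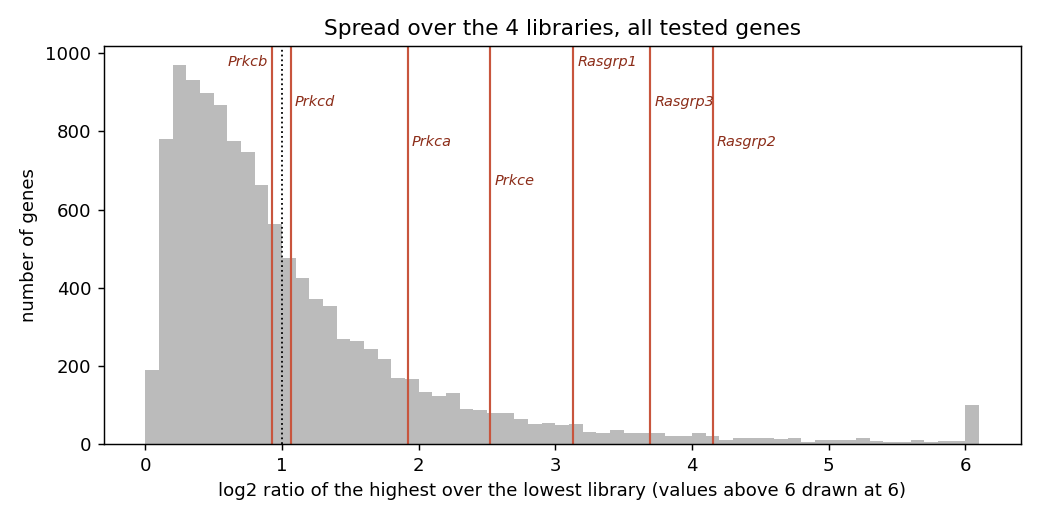
The gray histogram shows the log2 ratio of the highest over the lowest library for 11922 genes with at least 50 UMIs, with a dotted line at the 2-fold limit, and red lines mark the 7 members. Prkcb (0.93) and Prkcd (1.07) lie near the limit, whereas Prkce, Rasgrp1, Rasgrp3, and Rasgrp2 lie in the right tail.

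Neighbouring libraries differed little, with 1 exception. Between libraries 5 and 6 the 7 members were 1.00- to 1.06-fold apart, where 1.44% of genes were at least 1.5-fold apart. Between libraries 7 and 8, Prkca was 1.55-fold higher in library 7 (log2 0.64, 0.48 to 0.79), and the other 6 were 1.06- to 1.14-fold apart. A difference of at least 1.5-fold between libraries 7 and 8, a limit chosen after the values were seen, was found for 2.4% of genes with 50 UMIs in them and for 0.359% of those with 1000. Prkca was lower in library 8 than in library 7 also within cluster B, at 11.2 (9.96 to 12.4) against 16.9 CPM (15.6 to 18.2), and within cluster C, at 10.2 (8.52 to 12.2) against 18.9 CPM (16.9 to 21.0). In mitotic-like cluster F the intervals of the libraries overlapped, and in plasma cell-like cluster G, with few cells, library 8 had the higher value, at 36.9 CPM (19.1 to 64.4) against 30.6 (19.6 to 45.5) in library 7. The clusters are described further on.

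The make-up of the member mRNA was also different. Rasgrp2 contributed 30.2% (Clopper-Pearson 95% interval, 29.6 to 30.9) and 31.1% (30.5 to 31.7) of all member UMIs in libraries 5 and 6 but 6.20% (5.70 to 6.73) and 7.86% (7.17 to 8.60) in 7 and 8. Prkcb contributed 26.6% (26.0 to 27.2) and 26.6% (26.0 to 27.1) in libraries 5 and 6 and 53.7% (52.6 to 54.7) and 55.0% (53.7 to 56.3) in 7 and 8. These are shares of captured 3′ ends, and since all shares sum to the whole, a larger share of Prkcb went with a lower level of it.

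Single cells showed the same order once each was thinned to 4000 UMIs, which left out 29, 36, 91, and 55 shallower cells of libraries 5, 6, 7, and 8. A UMI of Rasgrp2 was found in 43.4% (41.9 to 44.9) and 42.4% (41.0 to 43.9) of thinned cells in libraries 5 and 6 and in 2.95% (2.52 to 3.43) and 3.42% (2.87 to 4.03) in 7 and 8. For Prkcb the shares were 37.4% (35.9 to 38.9), 38.8% (37.4 to 40.3), 23.2% (22.1 to 24.4), and 21.4% (20.1 to 22.7). Without thinning they were 64.0%, 66.5%, 49.8%, and 45.4% for Prkcb and 68.1%, 70.1%, 8.40%, and 8.92% for Rasgrp2. In libraries 5 and 6, 16.5% and 16.4% of thinned cells had no UMI of any member and 17.7% and 18.9% had UMIs of at least 3 members. In libraries 7 and 8, 60.5% and 64.4% had none, and only 0.633% and 0.380% had at least 3. No cell type that should lack these genes was present in number, so the share that free RNA gives could not be measured.

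**Figure D3:**
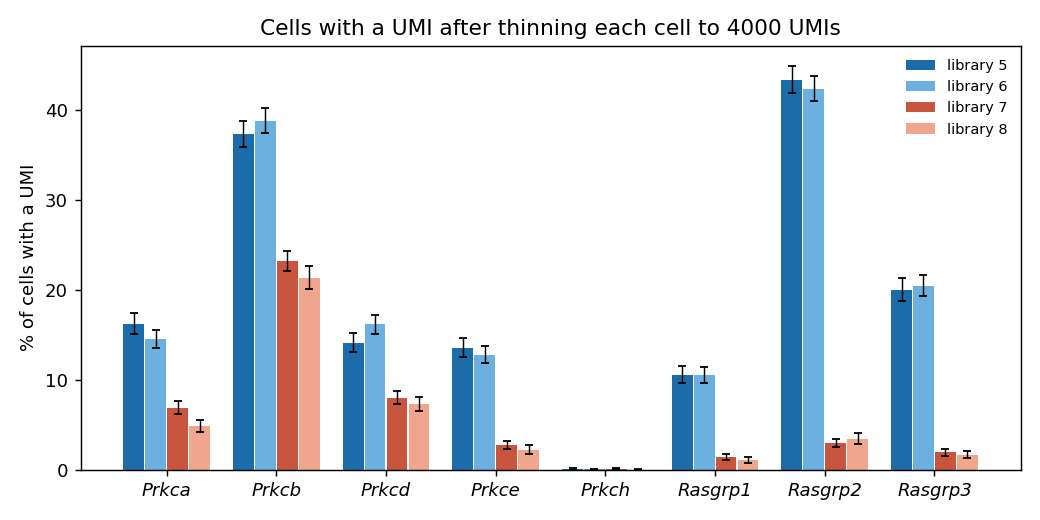
Bars give the share of cells, in percent and from 0, with at least 1 UMI of each gene after every cell was thinned to 4000 UMIs, with Clopper-Pearson 95% intervals. In Rasgrp2 the bars of libraries 5 and 6 stand at 43.4% and 42.4% and those of 7 and 8 at 2.95% and 3.42%, while in Prkcb all 4 lie between 21.4% and 38.8%.

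The cells fell into 7 clusters of more than 100 cells, formed without the members or the genes of the pathway lists, and lettered by size. Marker genes were not left out, so cluster names drawn from them are not independent of the clustering. Clusters A (7030 cells), D (946), and E (881) were made almost wholly of libraries 5 and 6, and clusters B (6767), C (2168), and F (519) of libraries 7 and 8, so cluster and library pair cannot be told apart between these sets. Cluster C was led by the S phase genes Ung, Mcm3, and Mcm5. Cluster D was led by Dhrs3, Ccl3, and Zfp811 and has no marker name. Clusters E and F are mitotic-like, with all 7 mitosis markers at least 4-fold over the other cells, a rule set after the clusters were seen. Cluster G (162 cells, 25 to 57 per library) is plasma cell-like, led by Jchain. Of the other plasma cell markers listed, Mzb1, Xbp1, Derl3, Txndc5, and Prdm1 were also highest in cluster G. Sdc1 was not, at 5.01 CPM against 6.45 in cluster B and 9.12 in cluster C, and Tnfrsf17 had only 5 UMIs in cluster G. Clusters H (41 cells) and I (20) were too small to describe by library.

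Within libraries 5 and 6, Rasgrp2 differed between clusters A and D. It was counted at 157 CPM (153 to 162) in cluster A and 64.0 (57.3 to 71.2) in cluster D of library 5, and at 165 (160 to 169) and 74.0 CPM (67.1 to 81.4) in library 6. The log2 ratio of D over A was -1.30 (-1.46 to -1.14) and -1.15 (-1.30 to -1.01), and Rasgrp2 was the only member at least 2-fold lower in both libraries (background 2.48% of 9870 genes), while none was 2-fold higher (background 3.12%). The median over those genes was -0.01 and -0.03. Prkce, at -0.68 (-0.96 to -0.42) and -0.38 (-0.63 to -0.15), Rasgrp1, at -0.58 (-0.89 to -0.29) and -0.64 (-0.94 to -0.35), and Rasgrp3, at -0.46 (-0.66 to -0.26) and -0.38 (-0.58 to -0.20), were also lower in cluster D. Prkcb was at 130 and 133 CPM in cluster D and 124 and 127 in cluster A, with intervals of the ratio that include 0 (-0.04 to 0.19 and -0.05 to 0.17). Cluster D thus held less Rasgrp2 than cluster A of the same library, and still more than clusters B, C, F, and G of libraries 7 and 8, where it lay between 5.69 and 12.3 CPM.

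**Figure D4:**
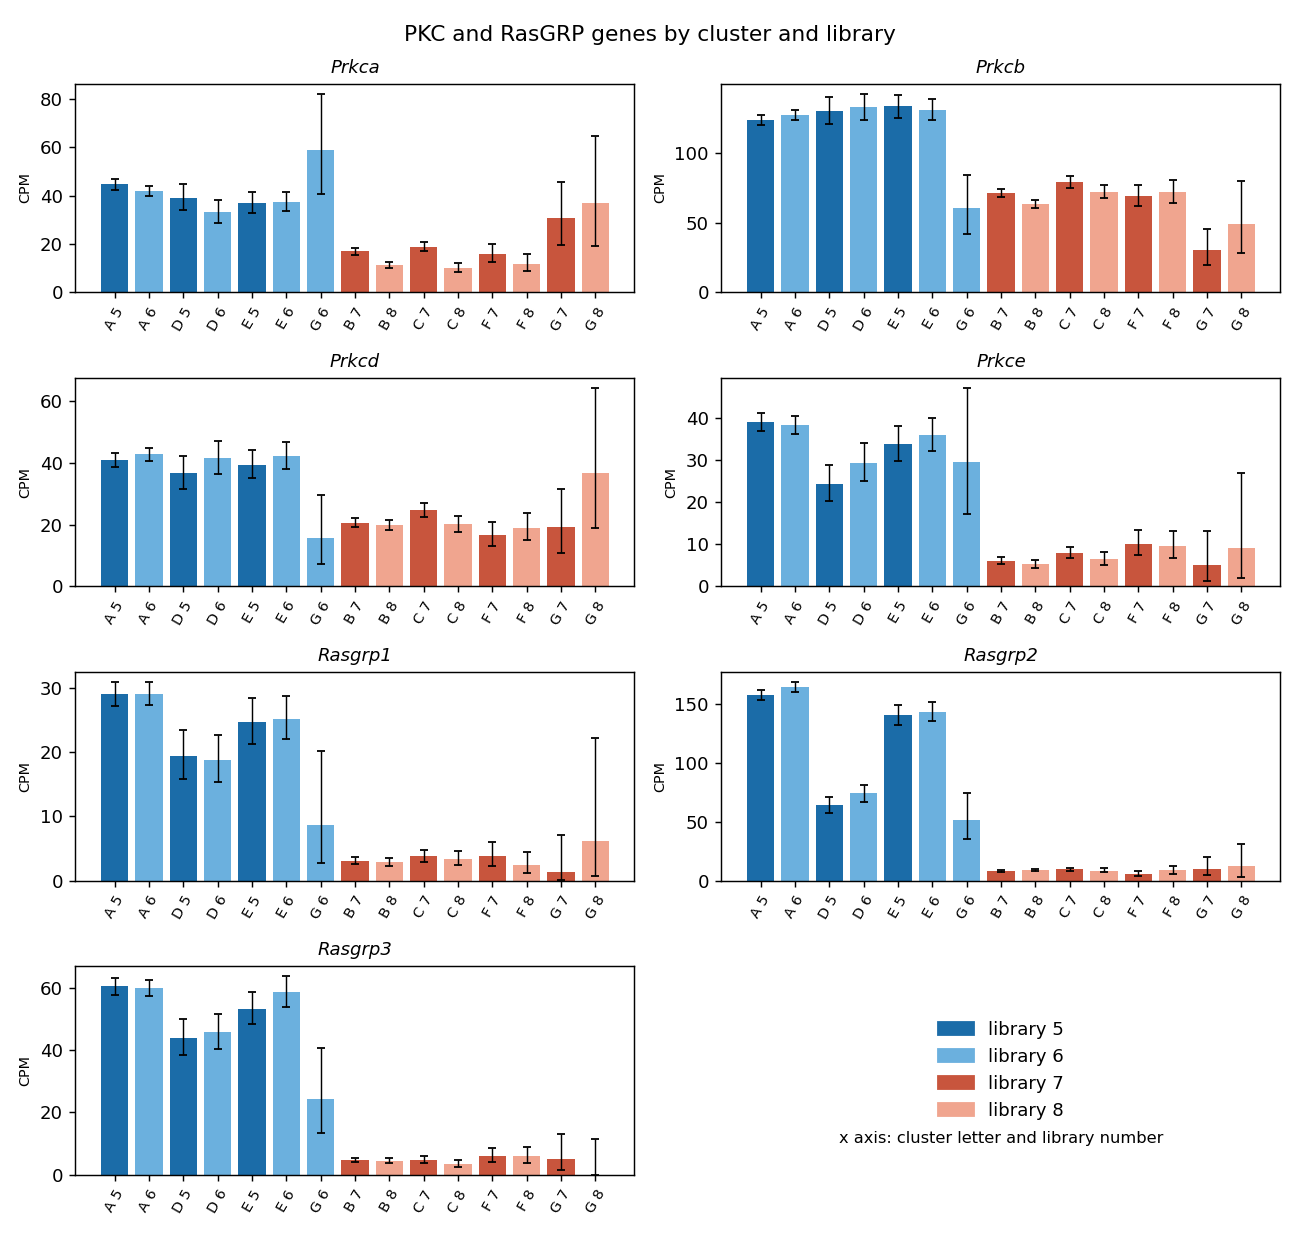
Bars show the CPM of each of the 7 detected members, from 0, in clusters A to G of every library that held at least 30 of their cells, in blue for libraries 5 and 6 and in red for 7 and 8, with exact 95% Poisson intervals. For Rasgrp2 the bars of cluster D in libraries 5 and 6 (64.0 and 74.0) stand between those of cluster A (157 and 165) and the low bars of libraries 7 and 8, whereas the bars of Prkcb are level over clusters A, D, and E.

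Between clusters C and B of libraries 7 and 8, which differ in S phase genes, none of the 7 members was 2-fold apart in both libraries, where 2.23% of genes were higher and 0.0919% lower in C. Prkcb was slightly higher in cluster C, at 79.1 against 71.2 CPM in library 7 (log2 0.15, 0.06 to 0.24) and 72.3 against 63.5 in library 8 (log2 0.19, 0.07 to 0.30).

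Mitotic-like cells were set against the other cells of their library. With 402, 477, 276, and 245 such cells in libraries 5, 6, 7, and 8, 0 of 7 members were at least 2-fold higher or lower in all 4 libraries, where 2.56% of 10102 genes were higher and 0.109% lower. With so few genes called, a count of 0 does not set the members apart. Prkce was 0.60 (log2, 0.14 to 1.04) and 0.80 (0.30 to 1.27) higher in mitotic-like cells of libraries 7 and 8, at 10.1 and 10.4 CPM against 6.66 and 5.97, while in libraries 5 and 6 the log2 ratio was -0.12 (-0.32 to 0.07) and -0.05 (-0.23 to 0.12). Rasgrp2 was at 141 and 143 CPM in mitotic-like cells of libraries 5 and 6 and at 5.69 and 9.18 in those of 7 and 8, so the gap between the library pairs was present among dividing cells too.

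Cluster G, the plasma cell-like cells, was the only cluster with 25 or more cells in every library. In the 3 libraries with at least 30 of them (49, 57, and 31 cells in libraries 6, 7, and 8), 4 members had enough UMIs to be read and 0 were 2-fold higher or lower throughout, where 1.37% of 6431 genes were higher and 4.07% lower. Prkcb was counted at 60.5 (42.2 to 84.2), 30.6 (19.6 to 45.5), and 49.2 CPM (28.1 to 79.8) against 128, 73.3, and 67.3 in the other cells. It was over 2-fold lower in libraries 6 and 7, at log2 -1.09 and -1.26, where the median gene was at -0.41 and -0.45. Without library 8 it was the 1 member called lower, of 6 with enough UMIs. The share of all genes called in that setting was not computed. Prkca stood on the other side, at 58.8 (40.7 to 82.2), 30.6 (19.6 to 45.5), and 36.9 CPM (19.1 to 64.4) against 40.01, 17.4, and 11.1, beside a median log2 ratio of -0.41, -0.45, and -0.35 over all genes. Rasgrp2 was at 51.9 CPM (35.0 to 74.1) in plasma cell-like cells of library 6 against 151 in the others, and at 10.2 (4.40 to 20.1) and 12.3 (3.35 to 31.5) in libraries 7 and 8 against 8.38 and 9.59. Prkcd was mixed, at 15.6 (7.12 to 29.5), 19.1 (10.7 to 31.5), and 36.9 CPM (19.1 to 64.4) against 42.6, 21.6, and 20.1. Its log2 ratio was -1.45 (-2.58 to -0.52) in library 6 and 0.88 (-0.08 to 1.69) in library 8.

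A small number of cells lay in clusters of the other library pair: 2, 4, 2, and 26 cells in libraries 5, 6, 7, and 8, none with a barcode sequence shared between libraries. The 26 cells of library 8 held 39 Rasgrp2 UMIs of 261051, or 149 CPM (106 to 204), and Prkcb at 138 CPM (96.6 to 191), close to the levels of libraries 5 and 6. Without them Rasgrp2 was at 8.81 CPM in library 8.

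The genes around the sensors were spread less and in both directions. Of 63 genes on 9 pathway lists, 53 had at least 50 UMIs and 17 were spread at least 2-fold, where 38% of all genes were. Of the 17, 9 had the highest value in library 5 or 6 (19.8% of all genes) and 8 in 7 or 8 (18.2%). The median log2 ratio of the 53 was 0.65, near the 0.77 of all genes. The same shares are the background of the counts for single lists, which hold 2 to 12 genes with at least 50 UMIs.

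Of 5 protein kinase D and PKN genes with at least 50 UMIs, 2 were called, and of 2 other PKC genes 1 was. Prkd2, a protein kinase D with C1 domains that PKC activates, had 28.4, 29.4, 5.37, and 5.89 CPM in libraries 5, 6, 7, and 8 (log2 2.45, 2.28 to 2.63), high and low in the same libraries as Rasgrp2. Pkn2, a PKC-related kinase that has no C1 domain, had a log2 ratio of 0.19 and was not called. Of the 2 atypical PKCs, which do not bind DAG, Prkcz was at 9.97, 10.1, 6.19, and 6.92 CPM, and Prkci was higher in libraries 7 and 8, at 2.32, 1.99, 4.82, and 4.18 CPM (log2 1.27, 0.95 to 1.61). Prkcq, the PKC of T cells, had 4 UMIs. A further list of 5 genes held Rasgrp4 and Chn2, which have C1 domains. On it 3 genes reached 50 UMIs, and only Rasgrp4 and Chn2 were called, both at low counts. Rasgrp4, the RasGRP of mast cells, was at 0.513, 0.542, 0.126, and 0.0657 CPM, from 62 UMIs in all. Chn2, a Rac GTPase-activating protein, was at 0.624, 0.445, 0.0157, and 0.109 CPM, from 57 UMIs in all.

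Enzymes that make and remove DAG were divided. Plcg2, the phospholipase that makes DAG behind the B cell receptor, had 49.8, 50.8, 17.7, and 16.5 CPM (log2 1.62, 1.505 to 1.74) and was 1 of 2 phospholipases called among 4. Of 7 DAG kinases, which turn DAG into phosphatidic acid, 5 were called, 2 with the highest value in library 5 or 6 and 3 in 7 or 8. Dgka had 21.4, 22.8, 2.33, and 2.17 CPM (log2 3.40, 3.1 to 3.71), and Dgkd had 46.3, 48.9, 18.3, and 17.6 (log2 1.47, 1.36 to 1.59). Dgkh, named after its values were seen, went the other way, with 0.424, 0.465, 9.92, and 9.35 CPM (log2 4.55, 3.89 to 5.29). Dgkz was level at 19.3 to 19.96 CPM in the 4 libraries.

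Beside genes for the priming, anchoring, and substrates of PKC, the next list held Phlpp1 and Phlpp2. All 6 of its genes were higher in libraries 7 and 8, an order that 48.6% of all genes had. Only Marcks, 1 of 6, passed 2-fold. Marcks, the actin-binding PKC substrate that PKC releases from the membrane, had 2.72, 3.21, 24.1, and 23.5 CPM (log2 3.15, 2.88 to 3.43). Its relative Marcksl1 was at 40.9, 40.9, 67.0, and 61.3 CPM (log2 0.71), Rack1, a ribosomal scaffold for active PKC, at 2604, 2496, 3130, and 3256 (log2 0.38), and Pdpk1, which primes PKC, had a log2 ratio of 0.25.

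Downstream of PKCβ, Bcl10 (log2 0.57), Malt1 (0.40), and Ikbkb (0.62) were highest in library 5 or 6, all under 2-fold. On the same list, Traf6 and Chuk went the other way, also under 2-fold. Traf6 was at 5.84, 6.14, 7.42, and 6.96 CPM and Chuk at 20.9, 22.4, 25.3, and 25.2 CPM in libraries 5, 6, 7, and 8. Ikbkg was mixed, highest in library 6 and lowest in library 5.

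Downstream of the RasGRPs, 1 of 12 genes for Ras, Rap, Raf, MEK, and ERK was called, and it was higher in libraries 7 and 8. Hras had 38.5, 41.6, 110, and 111 CPM (log2 1.53, 1.45 to 1.61). Mapk3, which encodes ERK1, was at 55.9, 55.4, 102, and 96.6 CPM (log2 0.87) and Nras at 33.6, 34.2, 52.5, and 51.2 (log2 0.65). Rap1a, a target of RasGRP2, was at 224, 236, 159, and 144 CPM (log2 0.71, 0.67 to 0.76), higher in libraries 5 and 6 but by far less than Rasgrp2. Rap1b, the other Rap1 gene, went the other way, at 174, 175, 219, and 204 CPM (log2 0.33, 0.29 to 0.37).

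Of 7 other Ras exchange factors and GTPase-activating proteins, 2 were called, in opposite directions. Rasa3, which switches off Ras and Rap1, had 50.2, 53.2, 6.87, and 6.48 CPM (log2 3.04, 2.86 to 3.21), high and low in the same libraries as Rasgrp2. Rasa2, also a Ras GTPase-activating protein, had 28.9, 30.5, 61.8, and 59.5 CPM (log2 1.10, 1.01 to 1.19). Its ratio was under the limit, at 0.91, when mitochondrial, ribosomal protein, and immunoglobulin genes were left out of the total, and at 0.98 with TMM scaling. Rasa1 (log2 0.41) and Rasal3 (0.36) were not called.

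Genes with a pattern like that of each member were sought over 12 sums of cells, 1 for each cluster and library with at least 200 cells, by Pearson's r of log2(CPM + 1). Closest to Rasgrp3 were Klf2, Cnp, and Mndal (r = 0.998 each), to Rasgrp2 Hspb11 (0.997), Gnai2 (0.995), and Mtss1 (0.994), and to Rasgrp1 Aes (0.999), Ikzf3 (0.997), and Ncoa1 (0.997). Prkce was closest to H2-DMb2 (0.996), Myl12b (0.994), and Scd1 (0.994), and Prkcd to Pax5 (0.988), Epsti1 (0.981), and Pld4 (0.981). Prkcb was closest to Foxn3, Sept6 (0.990 each), and Dtx1 (0.989), and Prkca to Helz2 (0.979), Taf6l (0.977), and Dock8 (0.975). The 12 sums share 4 libraries in which so many genes are high in 5 and 6 that 106 to 375 genes reached an r of 0.95 with a member.

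Promoters, windows of 300 bases of which the last 50 follow the start of a gene, were at hand from RefSeq (GRCm38.p6) for 6 of the 8 members, with 9 starts. Prkce and Prkch had no entry. The promoters of Rasgrp2 and Prkcb, the members with the largest and the smallest spread, are shown, with the GC box (GGGCGG, either strand, matches may overlap) in capitals.
Rasgrp2, chr19:6399625-6399924, plus strand: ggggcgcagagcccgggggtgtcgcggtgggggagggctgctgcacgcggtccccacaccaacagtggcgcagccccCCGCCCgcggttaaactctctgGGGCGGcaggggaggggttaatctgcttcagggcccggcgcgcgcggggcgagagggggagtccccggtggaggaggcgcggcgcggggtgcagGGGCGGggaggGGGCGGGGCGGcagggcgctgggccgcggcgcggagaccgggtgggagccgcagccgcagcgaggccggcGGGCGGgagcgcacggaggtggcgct
Prkcb, chr7:122288875-122289174, plus strand: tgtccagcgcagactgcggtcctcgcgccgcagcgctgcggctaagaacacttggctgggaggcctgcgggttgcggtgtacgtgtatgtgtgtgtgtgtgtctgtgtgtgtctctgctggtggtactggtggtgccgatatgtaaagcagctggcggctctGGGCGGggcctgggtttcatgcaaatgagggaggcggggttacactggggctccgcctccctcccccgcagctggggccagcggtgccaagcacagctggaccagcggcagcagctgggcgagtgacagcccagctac
The first holds 6 GC boxes and the second 1, and 35.7% of 32851 mouse promoters of this length hold at least 1. The other start of Rasgrp2 (chr19:6401455-6401754) had 2, those of Prkca and Rasgrp1 2 and 1, and those of Prkcd 0 and 4, while both starts of Rasgrp3 had 0. The AP-1 letters TGANTCA, found in 7.81% of promoters on either strand, and the EBF1 motif, found in 0.904%, were in none of the 9. The PU.1 letters GAGGAA, found in 28.3%, were in the promoter of Rasgrp1 (1 match) and in 1 of the 2 of Rasgrp3 (2 matches). These matches are descriptions of letters, not of binding.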

How the data were processed

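The authors aligned reads of 10x Genomics Chromium Single Cell 3' v3 libraries to mouse mm10 (Ensembl 93 genes) and counted UMIs with Cell Ranger (version 3.1.0), and they combined the libraries with its aggr step, which normalizes depth. The deposited matrix holds whole UMI counts, 1 or more where listed, without the imputation by SAVER-X that the authors used later. Animal age and culture doses are from the study's methods. The study's limits on cells, which it applied after imputation, were applied here to the counts. The 16069 columns before the barcoded ones were not used.

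UMIs were summed per gene and library and divided by the library's UMIs to give CPM. Intervals at 95% were computed in SciPy (version 1.17.1) as exact Poisson (CPM), exact conditional (ratios), or Clopper-Pearson (shares) limits. They cover counting error only, not mice or cultures. Scripts were tested on simulated data. Cells were log-normalized to 10000 UMIs and variable genes were chosen with scanpy (version 1.11.5). Clusters were made by Leiden (leidenalg, version 0.10.2) at resolution 0.3 on a graph of shared neighbors. The graph used 1989 variable genes, 20 principal components, and 20 neighbors. No doublet caller was run. Alternatives left out the 5% of cells with most UMIs and used TMM factors (edgeR, version 4.0.16). Plasma cell-like was the cluster with the highest Jchain.

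Genes named were all 8 members, up to 4 genes of each pathway list with at least 20 CPM in 1 library and the largest ratio, and, for each member with at least 10 CPM, the 3 genes nearest by correlation among those with a mean of at least 20 CPM. The other PKC genes, Rasgrp4, Chn2, Dgkz, Dgkh, Phlpp1, Phlpp2, Rap1b, Traf6, Chuk, and Ikbkg lie outside this rule and were chosen after their values were seen. Results for some genes are not reported here. The members and lists were chosen with earlier results of these data known.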

Additional observations from a re-analysis of the deposited data

How the results depend on the processing

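The count of 6 members spread at least 2-fold became 7 (with Prkcb) when mitochondrial, ribosomal protein, and immunoglobulin genes were left out of the total, and 7 (with Prkch, log2 2.52, -0.38 to 7.99, from 1 UMI in library 8) with no filter on low counts. It was 5 without library 6 or 8, where Prkcd was lost, and 6 otherwise. The pathway count of 17 ranged from 12 (cells thinned, or without library 5) to 20 (no filter on low counts). The share of all genes spread at least 2-fold moved too. It was 43.7% of 13654 genes with no filter on low counts and 33.8% to 34.8% with 1 library left out. In the other settings it was 37.4% to 38.4%. In the settings with all 4 libraries no member or pathway gene checked turned to the other pair of libraries. Prkch was not checked, and neither were the genes named outside the naming rule, except Dgkh and Chn2. Members in plasma cell-like cells ranged from 0 to 1 with a library left out, and members in mitotic-like cells stayed at 0. For these settings the share of all genes called was not computed. At resolution 0.5 only libraries 7 and 8 held 30 plasma cell-like cells. Relative to library 5, the median gene was shifted by 0.04, 0.14, and 0.08 on the log2 scale in libraries 6, 7, and 8. Rasgrp2 in cluster D against A, an alternative added after seeing the data, had a log2 ratio of -1.30 in library 5 and -1.15 in library 6. In its other settings the ratio was -1.35 to -1.34 in library 5 and -1.20 to -1.17 in library 6. Chn2 rests on library 7, with a log2 ratio of 2.51 without it and 5.31 with it. Genes under about 50 UMIs, such as Prkch, could not be compared at this depth. No paired analysis was possible because the barcodes carry no sample or replicate number and no result comes from a test.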
